A study of Mus musculus with 20 samples.

Results

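Tubb3, Tubb5 and Tubb6, which encode 3 β-tubulins, and Nefm, which encodes the medium neurofilament subunit, were followed across 10 groups of perifused LβT2 gonadotrope cells. The 4 genes are 4 of the 8251 genes that the platform annotation ties to probe sets carrying a single symbol, and all 6 probe sets annotated to them were used. They were chosen by their signals in these same arrays, in which Tubb6 and Nefm moved against Tubb3 and Tubb5 with GnRH. Their own levels and differences are therefore given as a description, with standard errors and without a test. All 6 probe sets passed the filter on low signal, which kept probe sets above 427.4 on at least 2 arrays. Changes and folds are on the scale of log2(signal + 166.8), estimated by limma, a linear model with variances moderated over all probe sets, and signals are as deposited.

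LβT2 is a mouse pituitary cell line made by targeted expression of a viral T antigen in gonadotropes, the cells that secrete luteinising hormone and follicle-stimulating hormone. Gonadotropin-releasing hormone (GnRH) is the hypothalamic peptide that reaches these cells in pulses and drives gonadotropin synthesis and release. Every group was grown on microcarrier beads, held overnight in serum-free medium, loaded into perifusion columns, equilibrated for 1 h and perifused for 4 h, after which total RNA was taken. The unstimulated group received no GnRH. At 100 nM, GnRH was given as 1, 2, 4 or 8 pulses of 2 min or continuously, which the labels call tonic. At 10 nM it was given as 1, 4 or 8 pulses or as tonic GnRH. Repeated pulses came at intervals of 118, 58 or 28 min, so a larger pulse number also means less time since the last pulse before RNA was taken. Each group had 2 arrays, 20 in all. The sample codes carry a letter, with A and D on arrays of 100 nM and of unstimulated cells and B and C on those of 10 nM. The dose differences, and 10 nM against unstimulated, therefore cannot be told apart from the letter, whereas comparisons of patterns within a dose lie within letters. Nothing in the labels states whether replicate arrays came from separate cultures, so the errors and p-values measure only the spread between these samples.

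Titles set the groups here. Another label field gives a pulse number that contradicts the title in 8 of the 20 samples, and groups taken from that field gave smaller values for Tubb6 and Nefm, printed with the alternatives in the closing section. Median signals ran from 705 to 836 over the arrays, r was 0.963 to 0.981 between replicate arrays and 0.913 to 0.985 between arrays of different groups, ranges that overlapped, and precision is limited by the small number of arrays. The gonadotrope label was checked on marker genes. Signal for Cga, the common gonadotropin α subunit, ran from 72648 to 137496, for Lhb, the luteinising hormone β subunit, from 2083 to 4285, and for Gnrhr, the GnRH receptor, from 395 to 1252. Fshb, the follicle-stimulating hormone β subunit, did not pass the filter. Some of these markers changed. Over all 100 nM arrays 2 of 7 tested were called (Cga by 0.51 and Egr1 by 2.35, both higher). That is 28.6%, against 14.2% of all 8491 probe sets tested. Under tonic 100 nM GnRH 2 were higher (Cga and Egr1) and 3 lower (Gnrhr, Pitx1 and Nr0b1), or 71.4% against 20.4%. With pulse number at 100 nM, Nr0b1 and Pitx1 fell by 0.31 and 0.23 per doubling and Egr1 rose by 1.09 (limma adjusted p = 0.000361, 0.044 and 1.8e-05). These calls are 42.9% of the 7 markers, against 6.89% of all probe sets. In RNA from whole columns, fewer cells of a type and less RNA per cell cannot be told apart.

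Microtubules are hollow polymers of α- and β-tubulin dimers. Mammals have several β-tubulin genes, called isotypes, which encode very similar proteins that differ most at the carboxy-terminal tail. Tubb5 is expressed in many cell types, Tubb3 is the isotype best known as a marker of neurons, and Tubb6 is a more divergent isotype. Tubulin messenger RNAs are also known to be degraded when free tubulin dimers accumulate, a feedback called tubulin autoregulation. Neurofilaments are intermediate filaments of neurons, built from Nefl, Nefm and Nefh together with α-internexin (Ina), and they set the calibre of axons.

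The stretches just before the start sites are shown for Tubb3 and Tubb5 because only these had a promoter window available. They were not picked by the direction of their change. RefSeq promoter windows of build GRCm38.p6 matched 2 of the 4 genes. Tubb3 lies on the plus strand, with its 250 bases before the start at chr8:123411303-123411552. Tubb5 lies on the minus strand, at chr17:35838302-35838551. Each sequence is written 5′ to 3′ along the gene and ends at the base before the start, and capitals mark the motif matches listed after it.
Tubb3: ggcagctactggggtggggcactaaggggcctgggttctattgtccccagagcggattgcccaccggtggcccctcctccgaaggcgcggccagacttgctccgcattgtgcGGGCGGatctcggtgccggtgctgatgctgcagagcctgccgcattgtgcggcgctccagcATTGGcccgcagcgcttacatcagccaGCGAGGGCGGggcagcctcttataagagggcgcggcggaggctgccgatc
Tubb5: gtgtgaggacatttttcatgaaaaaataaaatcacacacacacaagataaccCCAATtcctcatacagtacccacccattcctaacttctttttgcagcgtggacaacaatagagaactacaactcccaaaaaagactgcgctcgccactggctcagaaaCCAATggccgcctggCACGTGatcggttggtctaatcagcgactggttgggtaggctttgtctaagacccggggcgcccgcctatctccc

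The windows differed in base composition. GC content was 68.0% for Tubb3 and 49.2% for Tubb5, against a median of 52.0% over 27025 such windows. In 8 motifs searched on both strands, Tubb3 held the letters of an Egr motif, GCGNGGGCG, 50 to 42 bases before the start. Egr1, the factor best known for this motif, is an immediate early gene that GnRH induces in gonadotropes. That match overlapped a GC box, GGGCGG, at 46 to 41 bases, and a second GC box lay at 138 to 133 bases. Of all windows 4.65% held the Egr motif and 32.9% a GC box. Both genes held the letters CCAAT, Tubb3 on the reverse strand at 77 to 73 bases and Tubb5 at 198 to 194 and 90 to 86 bases, as did 34.5% of windows. Tubb5 also held the E-box CACGTG at 75 to 70 bases, which 6.05% of windows held. Neither window held the letters TGACGTCA (a CRE, in 1.62% of windows), TGANTCA (an AP-1 site, 6.87%), a CArG box (1.40%) or TATAAA (13.0%). These are matches of letters within 250 bases and describe nothing about binding.

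The probe sets differ in how specific they are. Of the 6, 4 carry the suffix for probes shared by members of a gene family (both of Tubb3, the brighter of Tubb5 and that of Tubb6) and 1, the dimmer of Tubb5, carries the suffix for relaxed probe selection rules. Because β-tubulin sequences are alike, such a probe set may hold signal from another isotype. Signals of different probe sets were not set against each other.

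Tubb6 gave the most regular series of levels of the 4 genes. Unstimulated cells had signals of 4356 and 3395 on arrays A and D. At 100 nM the signals on A and D were 8608 and 6948 after 1 pulse, 10102 and 7211 after 2, 14390 and 11913 after 4, 17116 and 14895 after 8, and 17226 and 20791 under tonic GnRH. At 10 nM they were, on B and C, 5880 and 5638 after 1 pulse, 8291 and 9609 after 4, 11404 and 11082 after 8, and 16246 and 14719 under tonic GnRH. All 18 stimulated arrays lay above both unstimulated arrays, and within each dose the more pulses were given, the higher the mean. Over all 8491 probe sets tested, 5.79% had every 100 nM array and 4.38% every 10 nM array above both unstimulated ones.

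**Figure D1:**
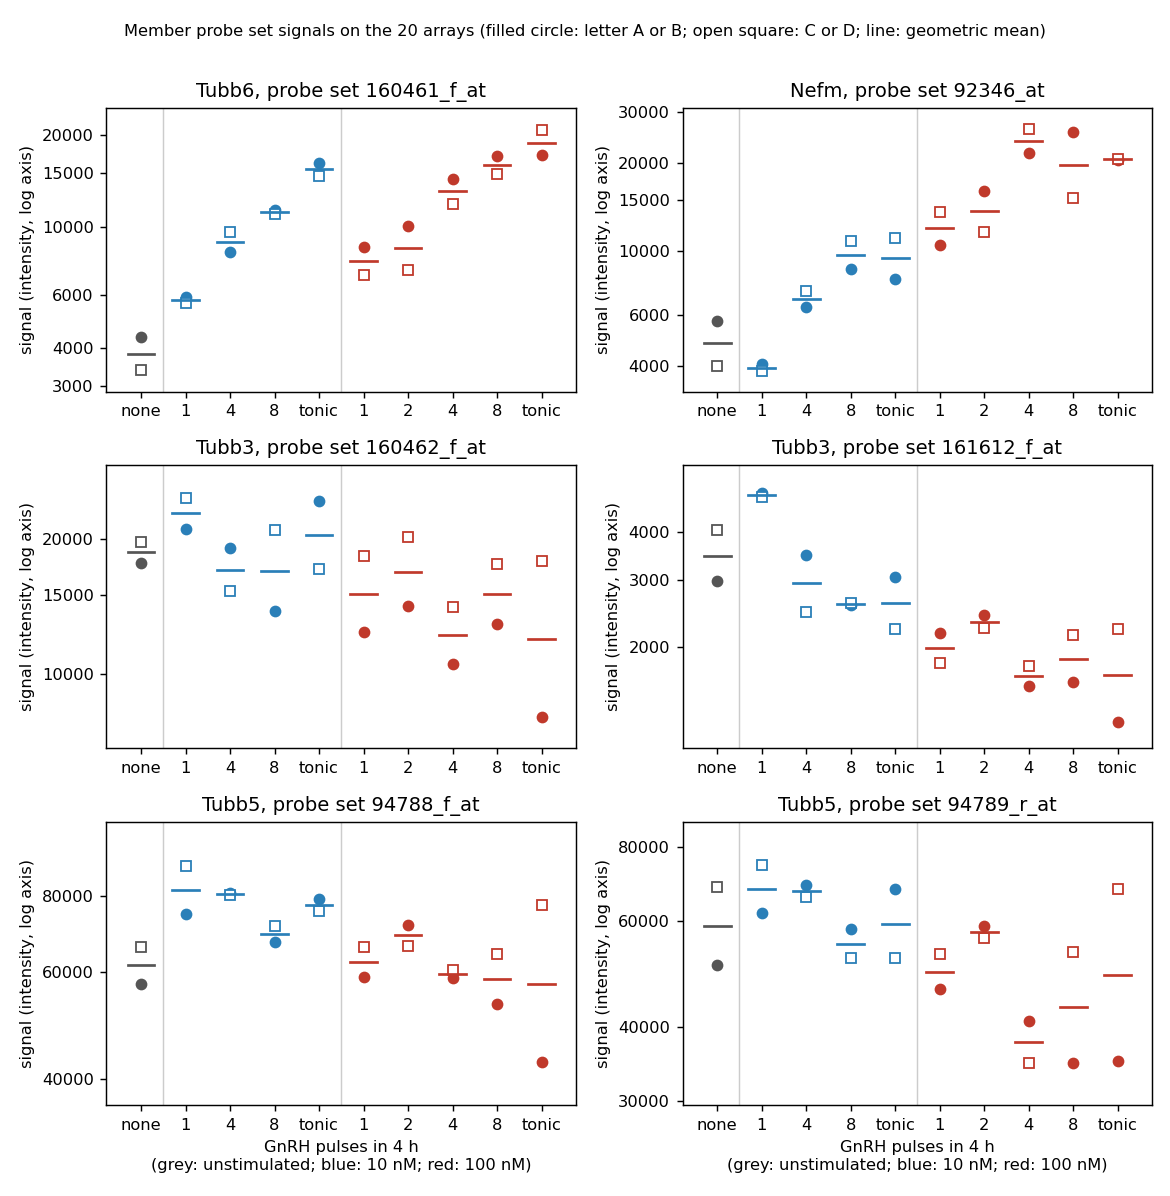
Signal on a log axis of each of the 6 probe sets of Tubb3, Tubb5, Tubb6 and Nefm, by group on the horizontal axis, with 1 point per array. Tubb6 climbs from 3395 to 4356 in unstimulated cells to 17226 to 20791 under tonic 100 nM GnRH, while the brighter Tubb5 probe set stays between 42682 and 89710.

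Ordered by level, the Tubb6 groups ran from unstimulated through 1 pulse at 10 nM to tonic GnRH at 100 nM, a 4.76-fold range between the lowest and the highest mean. The arrays of neighbouring groups overlapped in 3 of 9 steps, namely 1 and 2 pulses at 100 nM, 2 pulses at 100 nM and 4 pulses at 10 nM, and tonic GnRH at 10 nM and 8 pulses at 100 nM. The change from unstimulated was 1.62 ± 0.14 (log2, SE) over all 10 arrays at 100 nM and 1.30 ± 0.15 over the 8 at 10 nM. These 2 comparisons share the 2 unstimulated arrays. The trend was 0.37 ± 0.06 per doubling of pulse number at 100 nM and 0.31 ± 0.06 at 10 nM, and tonic GnRH was higher than 8 pulses by 0.24 at 100 nM and 0.45 at 10 nM.

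Nefm reached similar changes at 100 nM but followed another course at 10 nM. Unstimulated cells had signals of 5741 and 4018 on A and D. At 100 nM the signals were 10463 and 13639 after 1 pulse, 16077 and 11646 after 2, 21738 and 26226 after 4, 25708 and 15248 after 8, and 20505 and 20770 under tonic GnRH. At 10 nM they were 4076 and 3851 after 1 pulse, 6419 and 7282 after 4, 8676 and 10795 after 8, and 7975 and 11108 under tonic GnRH on B and C. Every 100 nM array lay above both unstimulated arrays. After a single 10 nM pulse, 1 array lay between the unstimulated arrays and the other below both, and the remaining 6 arrays at 10 nM lay above both.

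The highest Nefm mean, after 4 pulses at 100 nM, was 5.82-fold the lowest, after 1 pulse at 10 nM. Both arrays of that highest group, and array A of 8 pulses at 100 nM, had the highest Gapdh ratios. That measure of RNA integrity is given with Tubb5 below. Neighbouring groups overlapped in 6 of 9 steps. They were apart between unstimulated and 4 pulses at 10 nM, between 4 pulses and tonic GnRH at 10 nM, and between tonic GnRH and 4 pulses at 100 nM. The change from unstimulated was 1.82 ± 0.19 at 100 nM and 0.54 ± 0.19 at 10 nM. The 10 nM value was 0.29 without unstimulated array D and 0.79 without unstimulated array A. The trend was 0.30 ± 0.08 per doubling at 100 nM and 0.41 ± 0.08 at 10 nM. By pattern at 100 nM the changes were 1.29, 1.48, 2.27 and 2.01 for 1, 2, 4 and 8 pulses and 2.06 under tonic GnRH, each ± 0.24. The arrays of 8 pulses spanned those of tonic GnRH and overlapped those of 4 pulses. Tonic GnRH and 8 pulses differed by 0.06 at 100 nM and -0.04 at 10 nM.

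**Figure D2:**
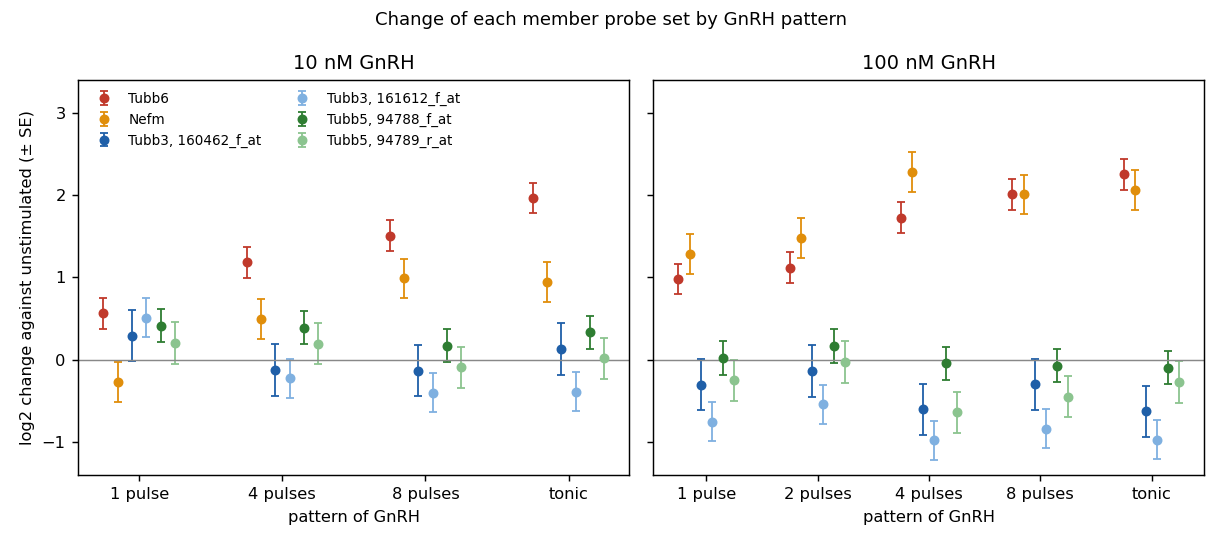
Log2 change from unstimulated cells (vertical axis, ± SE from the fit) of each of the 6 probe sets, by pattern of GnRH, with 10 nM on the left and 100 nM on the right. At 10 nM Tubb6 goes from 0.56 after 1 pulse to 1.96 under tonic GnRH and Nefm from -0.27 to 0.95, and at 100 nM both exceed 2 after 8 pulses.

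Tubb3 was measured by 2 probe sets that differed in clarity. The brighter had unstimulated signals of 17652 and 19688 on A and D. At 100 nM its signals were 12411 and 18276 after 1 pulse, 14173 and 20167 after 2, 10556 and 14087 after 4, 12937 and 17612 after 8, and 8047 and 17832 under tonic GnRH. At 10 nM they were 21049 and 24684 after 1 pulse, 19068 and 15277 after 4, 13788 and 20877 after 8, and 24281 and 17125 under tonic GnRH. Of the 10 arrays at 100 nM, 7 lay below both unstimulated arrays, 2 between them and 1 above both. On every one of the 6 pairs A and D, the D array was higher, by up to 2.19-fold under tonic 100 nM GnRH.

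The dimmer Tubb3 probe set separated the 100 nM arrays from the unstimulated ones. Unstimulated signals were 2972 and 4053. At 100 nM they were 2180 and 1812 after 1 pulse, 2430 and 2234 after 2, 1579 and 1779 after 4, 1614 and 2151 after 8, and 1273 and 2221 under tonic GnRH. At 10 nM they were 5078 and 4941 after 1 pulse, 3492 and 2475 after 4, 2572 and 2609 after 8, and 3055 and 2232 under tonic GnRH. All 10 arrays at 100 nM lay below both unstimulated arrays, as did 7.89% of all probe sets. The highest level was that of a single 10 nM pulse, 2.81-fold the lowest, that of 4 pulses at 100 nM. The change from unstimulated at 100 nM was -0.82 ± 0.18 for this probe set and -0.40 ± 0.24 for the brighter, and at 10 nM it was -0.13 ± 0.19 and 0.04 ± 0.25, the latter with a sign that changed to -0.09 after quantile normalisation. Per doubling of pulse number the dimmer probe set had -0.31 ± 0.08 at 10 nM and -0.07 ± 0.08 at 100 nM, and the brighter -0.15 ± 0.10 and -0.05 ± 0.10.

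Tubb5 varied least between groups, with 1.42- and 1.80-fold between the highest and lowest means of its brighter and dimmer probe sets. Its brighter probe set gave 57381 and 66020 in unstimulated cells. At 100 nM it gave 58949 and 66061 after 1 pulse, 71812 and 66208 after 2, 58729 and 60465 after 4, 53180 and 64337 after 8, and 42682 and 77313 under tonic GnRH. At 10 nM it gave 74672 and 89710 after 1 pulse, 81062 and 80199 after 4, 67127 and 71507 after 8, and 79219 and 75574 under tonic GnRH. All 8 arrays at 10 nM lay above both unstimulated arrays, while those at 100 nM lay above both on 4 arrays, below both on 2 and between on 4. Thus the data go partly against grouping Tubb5 with genes that were lower under GnRH. Relative to unstimulated cells this probe set stood at -0.0071 ± 0.16 at 100 nM, a value smaller than its error, and at 0.32 ± 0.16 at 10 nM. Quantile normalisation moved these values to -0.38 and 0.047.

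The dimmer Tubb5 probe set gave 50695 and 68426 in unstimulated cells. At 100 nM it gave 46161 and 52859 after 1 pulse, 58913 and 56314 after 2, 40874 and 34737 after 4, 34792 and 53308 after 8, and 34960 and 68005 under tonic GnRH. At 10 nM it gave 61862 and 74611 after 1 pulse, 68975 and 65943 after 4, 58339 and 52041 after 8, and 67974 and 52036 under tonic GnRH. At 100 nM 5 arrays lay below both unstimulated arrays and 5 between them, with a change of -0.33 ± 0.20, and at 10 nM 2 lay above both and 6 between. The ratio of Gapdh signal from the 3′ to the 5′ probe set, a measure of RNA integrity, was 1.21 to 1.69 on 3 arrays (both of 4 pulses and array A of 8 pulses, all at 100 nM) and 0.900 to 1.08 on the other 17. This probe set read low on those 3 arrays, and also on array A of tonic 100 nM GnRH, where the ratio was 1.02. Nefm read highest on the same 3 arrays, with 21738 and 26226 after 4 pulses and 25708 on array A of 8 pulses. Array D of 8 pulses, with a ratio of 0.985, gave 15248 for Nefm. On the tonic 100 nM arrays, with ratios of 1.02 and 1.07, Nefm was 20505 and 20770. The part of RNA integrity in these values of Tubb5 and Nefm was not tested.

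At matched patterns the 2 doses separated the genes into the opposing pairs. Nefm was higher at 100 nM than at 10 nM by 1.55, 1.78, 1.02 and 1.12 for 1, 4 and 8 pulses and tonic GnRH (log2, each ± 0.24), or 2.93-, 3.43-, 2.03- and 2.17-fold. Tubb6 was higher by 0.42, 0.54, 0.50 and 0.29 (each ± 0.18). The brighter and dimmer Tubb3 probe sets had -0.59, -0.48, -0.17 and -0.76 (each ± 0.31) and -1.26, -0.75, -0.44 and -0.58 (each ± 0.24). The 2 of Tubb5 had -0.39, -0.44, -0.24 and -0.43 (each ± 0.20) and -0.46, -0.84, -0.35 and -0.29 (each ± 0.25). All 24 of these differences therefore had the direction named for their gene, which the choice of genes used.

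**Figure D3:**
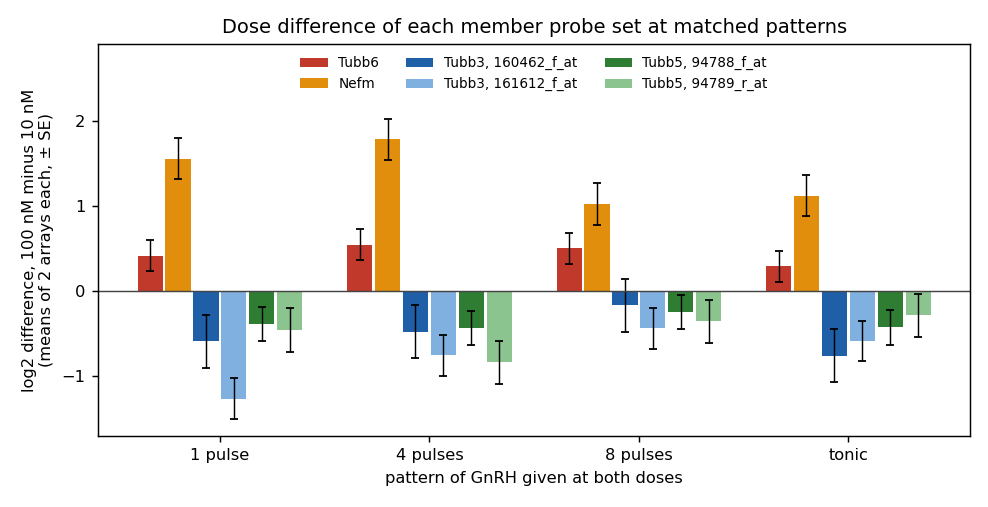
Log2 difference between 100 nM and 10 nM GnRH (vertical axis, bars from 0 with ± SE) of the 6 probe sets at the 4 patterns given at both doses. The bars of Nefm and Tubb6 lie above 0, from 0.29 to 1.78, and those of Tubb3 and Tubb5 below 0, from -1.26 to -0.17.

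The 2 arrays of each dose were apart at all 4 patterns for Tubb6, Nefm and the dimmer Tubb3 probe set, at 3 for the brighter Tubb5 probe set, and at 2 for the others. Between 2 arrays and 2 arrays this is frequent: 43.8%, 49.2%, 40.5% and 43.4% of all probe sets were apart after 1, 4 and 8 pulses and under tonic GnRH. Over all 4 patterns together, only the dimmer Tubb3 probe set had every 100 nM array on the same side of every 10 nM array, as did 0.730% of all probe sets. The mean differences over the patterns were 1.37 ± 0.12 for Nefm, 0.44 ± 0.09 for Tubb6, -0.50 ± 0.16 and -0.76 ± 0.12 for Tubb3, and -0.37 ± 0.10 and -0.48 ± 0.13 for Tubb5. Each kept its direction under quantile normalisation and with equal array medians. Dose and letter cannot be told apart here.

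The 4 genes also differed in how far the arrays of a group lay apart. The pooled SD between the arrays of a group was 0.386 (log2) for Tubb3, 0.220 for Tubb5, 0.186 for Tubb6 and 0.282 for Nefm. In 9 of 10 groups the array that was higher for Tubb3 was also higher for Tubb5, against 2 of 10 for Tubb3 with Tubb6 and 6 of 10 for Tubb6 with Nefm. Under tonic 100 nM GnRH, where Tubb3 differed 2.19-fold between the arrays, Tubb5 differed 1.81-fold and its dimmer probe set 1.94-fold. Tubb6 differed by at most 1.39-fold, after 2 pulses at 100 nM, and Nefm by at most 1.68-fold, after 8.

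The genes whose log2 signal followed each of the 4 most closely over the 20 arrays are given as a description, since the arrays share groups and doses. For Tubb6 they were Cish, an inhibitor of cytokine signalling (Pearson r = 0.950), Sertad1, a cell cycle and transcription cofactor (0.946), and Sdc1, a cell surface proteoglycan (0.936). For Nefm they were B2m, the light chain of class I histocompatibility molecules (0.952), Hipk2, a nuclear kinase (0.946), and Anp32b, a histone chaperone (0.941). For these 6 pairs r ran from 0.844 to 0.993 within either dose alone. Tubb3 was followed by Bckdha, a mitochondrial dehydrogenase subunit (0.829), Fkbp8, a mitochondrial chaperone (0.826), and Adk, adenosine kinase (0.801). Tubb5 was followed by Saal1 (0.854), Ncaph2, a condensin subunit (0.838), and Ndufv1, a subunit of respiratory complex I (0.831). Within 100 nM the r of these 6 pairs ran from 0.697 to 0.916. Within 10 nM it was 0.411 for Tubb3 with Bckdha and 0.467 for Tubb5 with Saal1, and 0.686 to 0.804 for the other 4.

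The other genes of the cytoskeleton show whether related genes moved too. These were 120 genes in 5 lists (tubulins, tubulin folding and modification, microtubule-associated proteins, microtubule motors and intermediate filaments), with 93 on the array and 82 past the filter, and they were tested with limma at an adjusted p under 0.05. Of the 82, 4 were higher and 8 lower at 100 nM than in unstimulated cells, or 14.6%, against 14.2% of all 8491 probe sets (6.37% higher and 7.84% lower), with a median change of 0.015 against -0.053. Without unstimulated array A the count was 6, and without array D it was 5. At 10 nM 1 was higher and none lower, or 1.22% against 1.91%. That count was 0 without unstimulated array A, 3 without array B of 4 pulses and 2 without array C of tonic GnRH, both at 10 nM. With equal array medians the 10 nM calls over all probe sets split 105 higher and 22 lower, against 106 and 56 as deposited.

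Among the partners of Nefm in the neurofilament, chosen for description after their values were seen, none passed over all 100 nM arrays together. Nefl, the light subunit that forms the core of the filament, had unstimulated signals of 3626 and 2900 and ran from 2261 to 4194 at 100 nM, a change of 0.01 ± 0.19 (limma adjusted p = 0.975). Nefh, the heavy subunit, had 16208 and 15211 and ran from 8128 to 21055 at 100 nM, a change of -0.27 ± 0.16 (limma adjusted p = 0.298). Under tonic 100 nM GnRH alone, Nefh fell by 0.79 ± 0.21, with signals of 10008 and 8128 (limma adjusted p = 0.0125, in a comparison that called 20.4% of all probe sets and was not refitted under the alternatives), whereas Nefl and Ina were not called there. With pulse number at 100 nM, Nefh had a trend of -0.22 per doubling (limma adjusted p = 0.0525). Ina had 12073 and 11208 and ran from 11457 to 15259, a change of 0.16 ± 0.11 (limma adjusted p = 0.358), with a second probe set at -0.090. The arrays of all 3 overlapped the unstimulated range at 100 nM, in contrast to those of Nefm.

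Besides Nefm, 12 intermediate filament genes were tested, Nefl, Nefh and Ina among them. Of these 12, 3 rose and none fell over all 100 nM arrays, where 6.37% of all probe sets were called higher and 7.84% lower, with a list median of 0.14. Krt18, a keratin of simple epithelia, had signals of 781 and 866 unstimulated and 5834 and 4186 under tonic 100 nM GnRH, and its change over all 100 nM arrays was 1.05 ± 0.19 (limma adjusted p = 0.00125). Nes, nestin of progenitor cells, rose by 1.03 ± 0.22 (limma adjusted p = 0.00458, and 0.0876 without unstimulated array D). Lmna, which encodes the lamins A and C of the nuclear envelope, rose by 1.01 ± 0.13 (limma adjusted p = 7.38e-05), and a second Lmna probe set by 0.83. Lmna was the gene called at 10 nM, with 0.83 ± 0.14 (limma adjusted p = 0.00412), but its second probe set stood at 0.44 there and did not pass (0.123). All 3 also rose with pulse number at 100 nM, by 0.54, 0.41 and 0.35 per doubling, while the second Lmna probe set stood at 0.14 (limma adjusted p = 0.186).

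**Figure D4:**
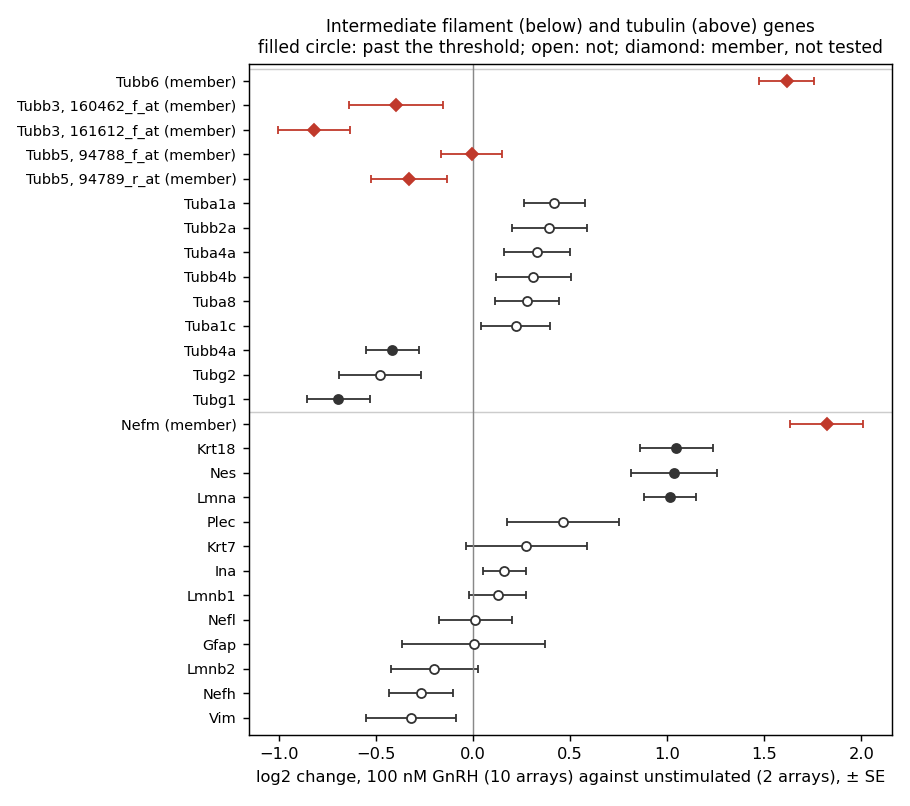
Log2 change at 100 nM against unstimulated cells, with its SE, of the tubulin and intermediate filament genes beside Tubb3, Tubb5, Tubb6 and Nefm. Tubb6 (1.62) and Nefm (1.82) lie farthest to the high side, Krt18, Nes and Lmna lie near 1, and Nefl lies at 0.01.

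Over all 100 nM arrays, 2 of 9 other tubulins tested fell and none rose, or 22.2% against 14.2% of all probe sets, with a list median of 0.28. Tubg1, the γ-tubulin that nucleates microtubules, fell by 0.69 (limma adjusted p = 0.00801, and 0.141 without unstimulated array D). Tubb4a, another β-tubulin, fell by 0.42 (limma adjusted p = 0.0492), a call that held in 4 of 25 alternatives (scaling, floor, variance trend, letter block and each array left out). Other tubulins, picked after their values were seen, did not pass over all 100 nM arrays: Tubb2a stood at 0.39 ± 0.19 (limma adjusted p = 0.193) with a second probe set at -0.20, Tubb4b at 0.31 ± 0.19 (0.305), and the α-tubulin Tuba1a at 0.42 ± 0.16 (0.0864). Under tonic 100 nM GnRH alone, Tubb2a rose by 0.81 ± 0.25 (limma adjusted p = 0.027), and Tubg1 and Tubb4a fell. The Tubb2a probe set carries the family suffix, and its tonic signals were unequal, 11651 on array A and 22146 on D, against 8398 and 9841 unstimulated. That comparison called 20.4% of all probe sets and was not refitted under the alternatives.

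Of 24 microtubule-associated proteins tested at 100 nM, 4 fell and 1 rose, or 20.8%, while 5.56% of the folding and modification genes and 5.26% of the motors were called, against 14.2% of all probe sets. Calls over all probe sets were 541 higher and 666 lower as deposited and 576 and 543 after quantile normalisation, so no lean to falls is read from these counts. Mapre2, a protein of growing microtubule ends, fell by 0.92 (limma adjusted p = 0.00167, and 0.06 without unstimulated array A). Kif2c, a kinesin that depolymerises microtubules, fell by 0.71 (limma adjusted p = 0.000462), Nde1, a dynein regulator, by 0.69 (0.00451, and 0.117 without unstimulated array A), and Clip1, a plus-end protein, by 0.57 (0.0236). The rise was Mapre1 (0.42, limma adjusted p = 0.0157), but its second probe set fell by 0.41 (0.0282), so its direction is unsettled. Of 18 genes for tubulin folding and modification, only Cct3, a chaperonin subunit, fell, by 0.59 (limma adjusted p = 0.0169), with other probe sets at -0.21 and -0.31 that did not pass. The called Cct3 probe set read lowest on the 3 arrays of highest Gapdh ratio. Its signals there were 5747 and 5029 after 4 pulses and 4864 on array A of 8 pulses, all at 100 nM. The part of RNA integrity in this fall was not tested. Of 19 motors, only Kif3c fell, by 0.52 (limma adjusted p = 0.0427), a call that held in 11 of the same 25 alternatives. The calls of Clip1, Cct3 and Mapre1 were lost when either unstimulated array was left out, those of Clip1 and Mapre1 also with quantile normalisation, and those of Clip1 and Cct3 also with equal array medians. Second probe sets of Spast, a microtubule-severing protein, and Mapre3 fell by 0.66 and 0.63 (limma adjusted p = 0.00311 and 0.0322), while the brighter ones stood at 0.0074 and -0.11 and did not pass.

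With pulse number at 100 nM, 3 of the 82 genes rose (Krt18, Nes and Lmna) and 1 fell (Kif2c, -0.17 per doubling, limma adjusted p = 0.0316), or 4.88% against 6.89% of all probe sets. The call of Kif2c was lost with quantile normalisation, with equal array medians and without any of 5 arrays (either of 1 pulse, A of 2 pulses, D of 4 and A of 8, all at 100 nM). That of Nes was lost without array D of 1 pulse or array A of 8 pulses, and without either of these arrays the count was 2. At 10 nM Lmna rose (0.22 per doubling, limma adjusted p = 0.0452, with its second probe set at 0.19 and 0.138) and Mapre2 fell (-0.30, 0.0339), or 2.44% against 2.10%. With the replicate letter as a block, which the B and C arrays bore out as a pairing, 7 genes were called there. Calls over all probe sets were not counted with that block, so the 7 are not read as a result about these genes. Leaving out any of 12 single arrays brought the 10 nM count to 0 or 1, namely either array of 1 pulse, 8 pulses or tonic GnRH at 10 nM, and of 2 pulses, 4 pulses or tonic GnRH at 100 nM.

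Markers of other cell types were measured beside these results. Of 13 neuronal and neuroendocrine markers on the array 10 passed the filter. At 100 nM Snap25, a protein of vesicle fusion, rose by 1.05 (limma adjusted p = 0.000617). Scg2, a granule protein, rose by 0.59 there (limma adjusted p = 0.00546), and the other 8 were not called. Of all 8491 probe sets 14.2% were called, 6.37% of them all as higher. Against that background, 2 calls of 10 are too few for a shift to be read. The summed signal of the list ran from 139211 to 153920 in unstimulated cells and from 159927 to 197761 over the 100 nM arrays. It was thus higher at 100 nM, as were Nefm and Tubb6. After 1 pulse at 10 nM it ran from 145898 to 151869, within the unstimulated range. There Nefm was 4076 and 3851, not above both unstimulated arrays, and Tubb6 was 5880 and 5638, above both. At 100 nM the sum reached 197761 after 4 pulses, where the mean of Nefm was also highest. It ran from 173972 to 186432 under tonic GnRH, where Tubb6 was highest. The part of these markers in the values of Nefm and Tubb6 was not tested. Of 14 markers of other cell types on the array 10 passed. Crhr1, the corticotrope receptor for corticotropin-releasing hormone, and Cd68, a macrophage marker, rose by 1.53 and 1.34, Prl, the lactotrope hormone, fell by 1.27 (limma adjusted p = 0.00211, 0.0013 and 0.00598), and 7 were not called. The calls are 30.0% of these 10, against 14.2% of all probe sets, again too few for a shift to be read. Summed signals of the 14 markers were 17407 to 18449 unstimulated and 15722 to 23177 at 100 nM, with all 4 arrays of 8 pulses and tonic GnRH above the unstimulated ones. The part of these markers in the values of the 4 genes was not tested. Pomc, Tshb, Ptprc and S100b, which mark corticotropes, thyrotropes, white blood cells and folliculostellate cells, did not pass the filter, nor did the neuronal Elavl3, Elavl4 and Syt1.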

How the data were processed

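Total RNA from perifused LβT2 cells was measured on 20 Affymetrix arrays. The authors deposited linear intensity values, 1 signal per probe set, made with MAS5 per the submitters' processing notes. For MAS5, neither version nor scaling target is given in the sources used here. From the 12488 probe sets, 66 controls were removed, and 8491 with a signal above 427.4 (the 40th percentile) on at least 2 arrays were kept. Values were transformed as log2(signal + 166.8), the constant being the 25th percentile, so changes are on that scale and understate those of low genes. Limma 3.58.1 in R 4.3.3 fitted group means to all 20 arrays (eBayes with an intensity trend, residual degrees of freedom 10 and prior 8.20). P-values are two-sided and Benjamini-Hochberg adjusted over all 8491 probe sets within each comparison, called under 0.05. The script was tested on simulated data.

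The 4 genes and all lists were chosen with earlier results of these data known. Gene names come from the platform annotation, and a gene with several probe sets is given by the one brightest on average, others being named where given. Named beside the 4 genes are up to 4 called genes of each cytoskeletal list with the largest change at 100 nM, the 3 genes most alike to each, and Cga, Lhb and Gnrhr, with further genes said to be picked after their values were seen. The letters of the sample codes were checked as a pairing through residual correlations between groups: all 6 pairs exceeded 0.1 for B and C (0.13 to 0.35), and 14 of 15 for A and D (0.080 to 0.32). Alternatives were other scalings, floors and filters, no intensity trend, fits of only the compared groups or with the letter as a block, groups from the other label field, the 12 samples with agreeing labels alone, omission of each array or of the 3 of highest Gapdh ratio, and other probe sets. Leaving out those 3 arrays removes the whole group of 4 pulses at 100 nM. The change from unstimulated at 100 nM and the 100 nM trend could therefore not be fitted without them.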

Additional observations from a re-analysis of the deposited data

How the results depend on the processing

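The changes of Tubb6 and Nefm from unstimulated cells kept their direction when any array was left out, at 100 nM between 1.44 and 1.79 and between 1.57 and 2.07. Quantile normalisation moved Tubb5 to -0.38 at 100 nM and 0.047 at 10 nM. The other probe sets gave -0.82 for Tubb3 at 100 nM, and -0.33 and 0.080 for Tubb5 at 100 and 10 nM. With groups from the label field that contradicts the titles, Tubb6 stood at 0.57 and 0.61 at 100 and 10 nM, and Nefm at 0.28 and, reversed, -0.66, while limma called 0 cytoskeletal genes in all 4 comparisons. With only the 12 samples whose labels agree, Nefm stood at 0.24 at 10 nM, and limma called 2 genes at 100 nM, 0 at 10 nM and 0 in both trends. The cause of these moves was not tested.

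The 10 nM count was 2 with the stricter filter and 2 with only the compared groups. The 10 nM trend gave 1 with equal medians, 0 without the filter, 1 without the intensity trend, 0 with only the compared groups and 7 with the letter as a replicate block. The 100 nM trend gave 13 with the letter as a replicate block. Of the residual correlations of A and D, 14 of 15 exceeded 0.1 (0.080 to 0.32), against all 6 of B and C (0.13 to 0.35). A pairing of the A and D arrays is therefore not excluded. Calls over all probe sets were not counted with the block, so neither trend count with it is read as a result about these genes. The block changed no other count by more than 1.5 times, and could not be fitted for 10 nM against unstimulated. Leaving out single arrays gave 5 to 13 genes at 100 nM, 0 to 3 at 10 nM, 2 to 6 in the 100 nM trend and 0 to 3 in the 10 nM trend. With 2 arrays a group, 2 unstimulated arrays carry every change from unstimulated, and array number and probe sets shared between isotypes limit the β-tubulin values.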
